A study of Mus musculus with 12 samples.

Results

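Liver RNA of db/db mice after 3 days of MgH2 was compared with that of control mice on 3 two-color arrays, of the 12 arrays in the study. These mice carry a broken leptin receptor gene, with obesity and diabetes as the outcome, and the labels give male mice of 8 weeks for both channels of every array. MgH2 reacts with water and releases molecular hydrogen, H2. It was given by gavage once a day, at 0.9 mg/kg by the labels and at higher doses by the methods. The study's legend for plasma triglycerides of db/db mice over the same days also gives 0.9 mg/kg. The controls were db/db mice that received Mg(OH)2, which the labels call control. Each array held liver RNA pooled from 3 MgH2 mice in Cy5 and from 3 control mice in Cy3, which gave n = 3 pools per group. The dyes were never swapped. A dye bias of a probe and an effect of MgH2 cannot be told apart in a single ratio. The remaining arrays covered 1 and 7 days of MgH2, again against controls, and 14 days of drinking water with 0.8 mM H2 against controls, with 3 arrays each. Of the 20017 genes named on the array, 11954 had a representative probe whose Cy3 and Cy5 spots both exceeded background clearly on each of the 3 arrays of 3 days, and these are described here. A log2 ratio below is that of the MgH2 pool over the control pool of the same array, and a gene is said to rise or fall where limma called it at an adjusted P under 0.05.

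The liver turns glucose into fatty acids under the transcription factors SREBP-1c and ChREBP, which insulin and glucose activate. It burns fatty acids under PPARα, a nuclear receptor that the coactivator PGC-1α assists. The arrays of the study were a screen for liver genes whose expression changes with H2. A set of genes with a shared response element in their promoters answers to interferon, and resident macrophages, the Kupffer cells, express many of the immune genes seen in whole liver. Since whole tissue was measured, fewer cells of a type and less RNA per cell cannot be told apart.

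After 3 days of MgH2, 1579 genes rose (13.2% of 11954) and 1365 fell (11.4%), so that 24.6% were called in either direction. Most changes were small, with a median absolute log2 ratio of 0.26 over the called probes. Beyond 2-fold, 1 gene rose and 8 fell. The single rise was Akr1c18, an aldo-keto reductase that inactivates progesterone. Its probe was dim, with control signals of 21.6, 25.3 and 31.3. The falls beyond 2-fold were led by Saa1, an acute phase protein, and by Fasn, Elovl6 and Scd1, which build, lengthen and desaturate fatty acids. By probe, 2389 were higher and 2153 lower of 19427. With each channel divided by its total, the median log2 ratio of the tested probes was -0.028 in place of 0.0022. The calls were then 1761 higher and 2827 lower, or 38.4% of calls higher in place of 52.6%. The counts rest on the spread shared by all 12 arrays. With the 3 arrays of 3 days alone, limma called 185 probes higher and 107 lower, and without replicate 2 the counts were 1232 and 879.

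The 3 arrays had 52.4% to 52.8% of spots above background in both channels, 0 saturated spots, and a ratio of channel totals between 1.016 and 1.027. Replicate 1 shared a slide with the arrays of 1 day, and replicates 2 and 3 shared a slide with 2 arrays of 7 days, so the slide and the replicate cannot be told apart at 3 days. The control pools of 3 days resembled control pools of other days by replicate number. The SD of the log2 Cy3 difference between a control pool of 3 days and the control pool of the same number at 1 or 7 days was 0.137 to 0.211 over 6 pairs. Between control pools of unlike number on different days it was 0.22 to 0.297 over 12 pairs, and among the 3 control pools of 3 days 0.246 to 0.292. Every same-numbered pair of control pools was therefore closer than any of these other pairs. The MgH2 pools showed no such order, with 0.241 to 0.307 for the same number and 0.189 to 0.312 for unlike numbers. The labels state no link between control pools of different days. Whether 1, 3 and 7 days drew on the same control RNA was not tested, and ratios of these days are given below side by side and not as separate evidence.

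**Figure D1:**
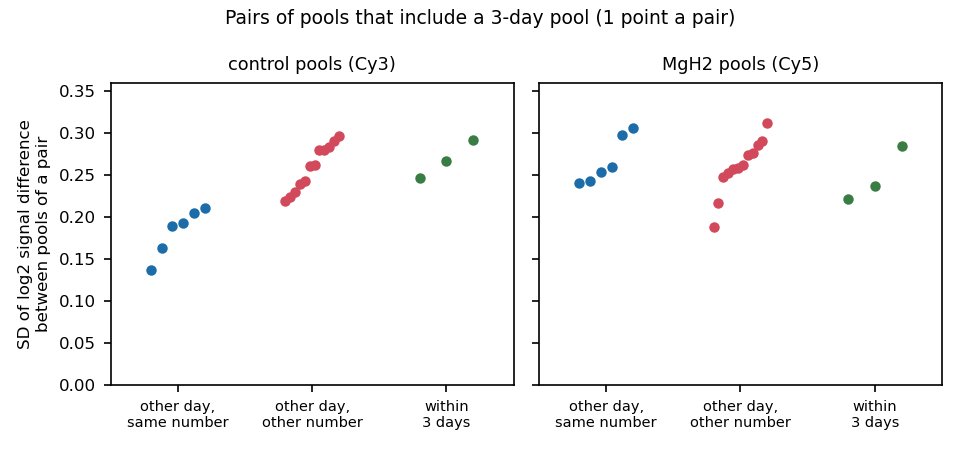
Each point is a pair of liver RNA pools that includes a 3-day pool, and the vertical axis is the SD of the difference of their log2 signals over probes, for control pools (Cy3, left) and MgH2 pools (Cy5, right). The 6 same-numbered pairs of control pools lie at 0.137 to 0.211, below the other control pairs, which start at 0.22, while the MgH2 pairs overlap.

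Genes of fatty acid synthesis fell together at 3 days. Of the 25 lipogenic genes tested, 17 fell and 0 rose, against the 11.4% of all tested genes that fell. Their median log2 ratio was -0.49, beside 0.0031 for all tested genes. On all 3 arrays 20 of the 25 were below 0, as were 3173 of all 11954 tested genes. Fasn, the fatty acid synthase, had log2 ratios of -1.03, -2.37 and -1.81 on replicates 1, 2 and 3. Its mean was -1.73 (standard error 0.37, adjusted P = 0.0092), or 3.33-fold lower. Elovl6, which lengthens palmitate, had ratios of -0.64, -2.05 and -1.49 and a mean of -1.39 (standard error 0.25, adjusted P = 0.0048). Replicate 1 was the closest to 0 for both genes, and no array reached 0. Scd1, the main stearoyl-CoA desaturase of liver, had ratios of -0.86, -1.61 and -1.20 and a mean of -1.22 (standard error 0.20, adjusted P = 0.0033). Its neighbor Scd3 had nearly the same values (-0.85, -1.56 and -1.25), but a second probe of Scd3 was not called (log2 ratio -0.28, adjusted P = 0.16), and a probe may not separate these near copies. Acaca and Acacb, the acetyl-CoA carboxylases, fell to mean ratios of -0.76 and -0.77. Acly, which makes cytosolic acetyl-CoA, fell to -0.52, and the NADPH-producing enzymes Me1, G6pdx and Pgd to -0.59, -0.44 and -0.33. Pklr, the liver pyruvate kinase, had ratios of -0.60, -1.22 and -0.80.

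The regulators of the pathway were among the genes that fell. Srebf1, which encodes SREBP-1c, had log2 ratios of -0.36, -0.92 and -0.51 (mean -0.60, adjusted P = 0.0075). Mlxipl, which encodes ChREBP, had -0.38, -0.26 and -0.34 (mean -0.33, adjusted P = 0.017). Mid1ip1, a partner of acetyl-CoA carboxylase, fell to -0.86, with -0.16 on replicate 1 against -1.33 and -1.11 on the others. Thrsp, a further lipogenic factor, was not called and differed in sign between the arrays (0.28, -1.16 and -0.60). Dgat1 and Dgat2, which join fatty acids into triglyceride, were not called either, with means of 0.05 and -0.11. Pnpla3, a lipase of lipid droplets, was well above background in the control channel and not in the MgH2 channel on the 3 arrays. It was at least 3.22-fold lower with MgH2 (adjusted P = 0.039 in the fit without a filter on dim probes). That fold was taken only because the probe passed in the control channel.

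The size of the lipogenic fall differed between the arrays. The median of the list was -0.24 on replicate 1, -0.56 on replicate 2 and -0.60 on replicate 3. Without replicate 2, 6 of the genes were called lower, without replicate 3, 11, and without replicate 1, 16. With the 3 arrays alone, 2 were called. Fasn itself had a mean of -1.42 and was no longer called without replicate 2 (adjusted P = 0.070).

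**Figure D2:**
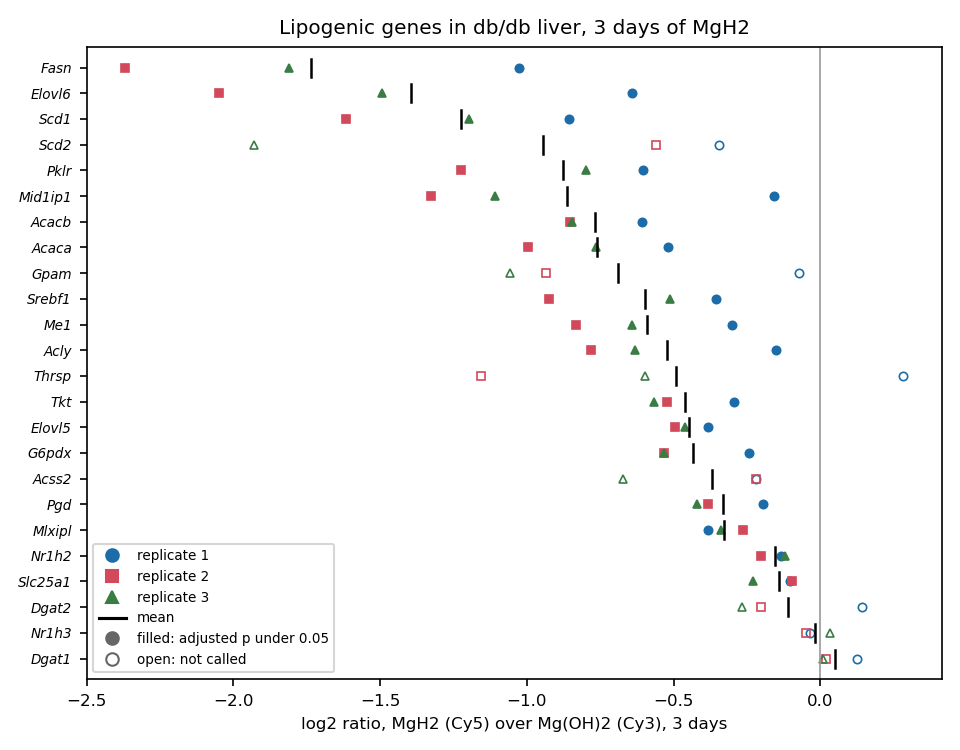
Log2 ratio of the MgH2 pool over the control pool on each of the 3 arrays of 3 days (horizontal axis) for 24 of the 25 lipogenic genes tested, with symbols for replicates 1 to 3, bars at the mean, and filled symbols for the 17 genes called. Fasn, at a mean of -1.73, lies farthest below 0, and replicate 1 lies nearest to 0 for 19 of the 24 genes drawn.

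Cholesterol synthesis, which SREBP-2 governs, moved less uniformly. Of 28 genes tested, 6 fell and 1 rose, beside 11.4% and 13.2% of all tested genes, with a median log2 ratio of -0.26. Mvd, the mevalonate decarboxylase, had a mean of -0.96 (standard error 0.17, adjusted P = 0.0043). Fdps, the farnesyl diphosphate synthase, fell to -0.54, and Insig2, which holds SREBP precursors back, rose to 0.65 with 0.08, 0.86 and 1.02 on the arrays. A second probe of Insig2 had a mean of 0.28 and was not called (adjusted P = 0.24). The median of the list was -0.30 on replicate 1, 0.01 on replicate 2 and -0.45 on replicate 3, so replicate 2, the lowest array for 15 of the 25 lipogenic genes, showed no shift of this list. With the replicate number as a block 10 genes were called lower. The block takes the spread that same-numbered arrays share out of the P value. Without replicate 2, 10 genes were called lower, and without replicate 1 or 3, 3 were.

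Interferon response and antigen presentation genes fell together. Of 48 genes tested, 33 fell and 0 rose, beside 11.4% and 13.2% of all tested genes, with a median log2 ratio of -0.42. On all 3 arrays 45 were below 0, as were 3173 of all 11954 tested genes. The promoters of such genes hold the interferon-stimulated response element, whose core can be written as GAAA, NN and GAAA in a row, with N for any base. Read on both strands within the 250 bases before the transcription start, overlaps included, these letters stood in 2.98% of all 32851 RefSeq promoters. They stood in the promoters of 11 of the 27 fallen genes with a promoter sequence, and in those of 5 of 9 genes of the list that were tested and not called, so the letters did not separate the fallen from the other members. Parts of 4 of these promoters are shown because they hold the searched letters, in capitals, on the strand of the gene (RefSeq, GRCm38.p6).
Ifit1, chr19:34640745-34640853, plus strand: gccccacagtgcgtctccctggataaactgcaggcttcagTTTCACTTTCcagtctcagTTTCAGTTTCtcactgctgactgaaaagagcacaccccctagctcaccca
Oas1a, chr5:120907526-120907585, minus strand: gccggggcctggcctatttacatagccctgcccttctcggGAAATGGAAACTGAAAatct
Isg15, chr4:156200835-156200936, minus strand: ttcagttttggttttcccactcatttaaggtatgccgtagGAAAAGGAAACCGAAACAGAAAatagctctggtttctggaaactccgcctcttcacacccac
Irgm1, chr11:48871421-48871490, minus strand: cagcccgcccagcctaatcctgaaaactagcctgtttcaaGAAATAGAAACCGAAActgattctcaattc
The first match began 104 bases before the start of Ifit1, 20 before that of Oas1a, 78 before that of Isg15 and 30 before that of Irgm1. Isg15 held 3 overlapping matches, and Ifit1, Oas1a and Irgm1 held 2 each.

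Ifit1, which binds foreign RNA, had log2 ratios of -0.76, -1.43 and -0.70 (mean -0.96, standard error 0.17, adjusted P = 0.0041). Oas1a, which senses double-stranded RNA, had -0.80, -1.07 and -0.85 (mean -0.91, adjusted P = 0.013). Isg15, a ubiquitin-like modifier, had -0.44, -0.66 and -0.61 (mean -0.57, adjusted P = 0.0079), and Irgm1, a GTPase against vacuolar bacteria, had -0.60, -0.51 and -0.52 (mean -0.54, adjusted P = 0.0043). All 12 of these ratios were below 0. The largest fall of the group was that of Gbp6, a guanylate-binding protein, at -0.92, -1.19 and -1.09 (mean -1.07, standard error 0.14, adjusted P = 0.0011), and its second probe gave -1.08. Ifi44 and Ifi27l2a, both induced by interferon, fell to -0.99 and -0.94. The Ifi44 probe was dim, with control signals of 32.1, 39.1 and 48.2. The size of these falls depended on the processing. Under the alternatives that kept all replicates, the smallest falls were -0.31 for Ifit1, -0.60 for Gbp6, -0.26 for Ifi44 and -0.80 for Ifi27l2a. The median of the list then ran from -0.45 to -0.33. Irf7, the factor that amplifies the response, fell to -0.92 (-0.65, -1.07 and -1.04, adjusted P = 0.0040), and Irf9, a subunit of the complex that binds the element, to -0.46. Stat2, another subunit, was not called, with a mean of -0.18. Rsad2, a classical interferon target, was not called and had ratios of -0.41, 0.02 and 0.14. Ifit3 and Ifit3b fell to -0.58 and -0.76, and the promoter windows that hold their elements were identical over 124 bases. Whether the probes of these copies share targets was not tested.

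Genes of antigen presentation were among those that fell. Cd74, the chaperone of class II molecules, had log2 ratios of -0.54, -0.81 and -0.36 (mean -0.57, adjusted P = 0.020). H2-K1, a class I heavy chain, had -0.23, -0.39 and -0.36 (mean -0.33), and B2m, its light chain, had -0.16, -0.15 and -0.19 (mean -0.17, adjusted P = 0.022). Tap1 and Psmb9, which supply peptides, fell to -0.64 and -0.39. Without a replicate, 17 to 26 genes of the list were called lower, the fewest without replicate 2 (17), then without replicate 3 (20). With the 3 arrays alone, 10 were.

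**Figure D3:**
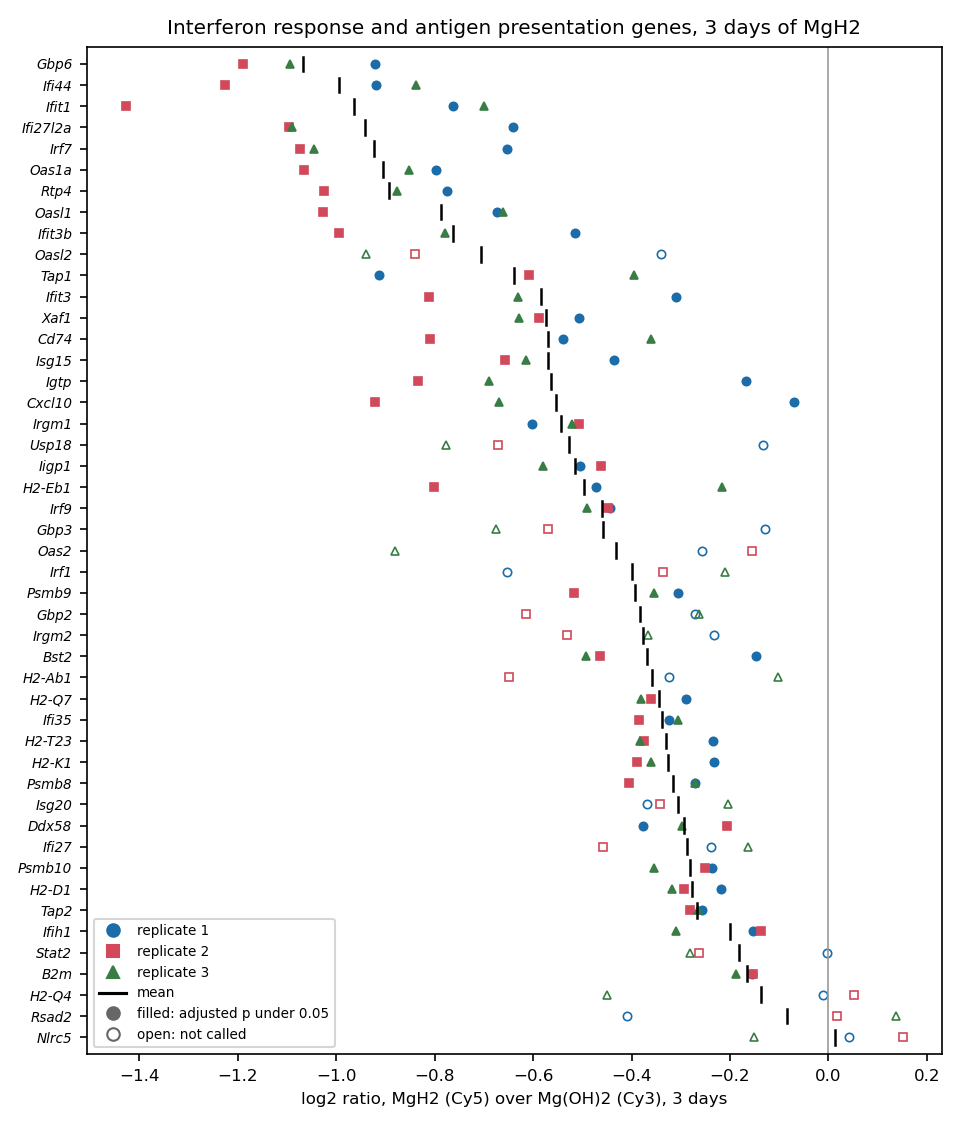
Log2 ratio of the MgH2 pool over the control pool on each of the 3 arrays of 3 days (horizontal axis) for 47 of the 48 interferon response and antigen presentation genes tested, with symbols for replicates 1 to 3, bars at the mean, and filled symbols for the 33 genes called. Gbp6 (mean -1.07) lies farthest below 0, and 44 of the genes drawn have all 3 points below 0.

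Markers of Kupffer cells and other leukocytes were lower as well. Of 24 tested, 13 fell and 2 rose, beside 11.4% and 13.2% of all tested genes. Their median log2 ratio was -0.37, with medians of -0.38, -0.39 and -0.32 on the 3 arrays. The summed signal of the list was 25300 to 32650 over the control pools and 21200 to 26490 over the MgH2 pools, which overlap. C1qa, a subunit of complement C1q made by macrophages, had ratios of -0.46, -0.53 and -0.49 (mean -0.49, standard error 0.07, adjusted P = 0.0011). Clec4f, a receptor restricted to mouse Kupffer cells, fell to -0.36, and Cd5l and Vsig4, further Kupffer cell genes, to -0.47 and -0.36. S100a9 and S100a8, which neutrophils carry in quantity, fell to -1.13 and -0.68. Adgre1, which encodes the F4/80 antigen, was not called (0.00, -0.23 and -0.31), nor was Csf1r (-0.11, -0.27 and -0.27, adjusted P = 0.073). The 2 markers that rose were the T cell genes Cd4 (0.28) and Cd3e (0.11). Without replicate 2, 5 were called lower. The part of these cells in the fall of the interferon genes was not tested.

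The markers of other cell types follow, to be read beside the 13.2% of all tested genes that rose and the 11.4% that fell. Among matrix and stellate cell genes, 7 of 22 fell and 0 rose, with a median of -0.18. Without a replicate 2 to 5 were called lower, with the 3 arrays alone 1, and with the replicate block 10. Col3a1 had log2 ratios of -0.45, -0.57 and -0.60 (mean -0.54, adjusted P = 0.00087), and Col1a1, the other major fibrillar collagen, and Lrat, which stores retinol in stellate cells, fell to -0.41 and -0.47. Of 15 endothelial markers, 3 rose and 2 fell, with Lyve1, a hyaluronan receptor of sinusoids, at 0.44, 0.66 and 0.65 (mean 0.58, adjusted P = 0.0021). Of 15 hepatocyte markers, 3 rose and 0 fell, Alb among them with 0.23, 0.25 and 0.25 (mean 0.25). All 15 were well above background in both channels, and the Alb signal of the control pools was 208220, 188730 and 217900. After normexp and loess, 9 of the hepatocyte markers rose. Bile duct, red cell and pancreas markers had 1 fallen gene each, of 6, 8 and 6 tested. The defining adipocyte genes Adipoq, Lep, Plin1 and Ucp1 were not well above background on all arrays, and of the 7 adipocyte genes tested, Car3 fell (-0.47). The median of the 7 was -0.47, with -0.15, -0.53 and -0.73 on the arrays, and 5 were called lower with the replicate block. The summed signal of these genes was 91060 to 126500 over the control pools and 75990 to 88110 over the MgH2 pools, which do not overlap. Cfd, the adipsin gene, had ratios of -0.91, -3.57 and -2.09 and was not called (adjusted P = 0.064).

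The genes on which the study reasoned moved in parts. Of the 20 genes named in its text and legends, 19 were tested. Of these 9 rose and 2 fell, beside 13.2% and 11.4% of all tested genes. The study chose them partly on these arrays, so their count is not independent evidence. Ppargc1a, which encodes PGC-1α, had log2 ratios of 0.42, 0.89 and 0.43 on the 3 arrays. Its mean was 0.58, or 1.49-fold (standard error 0.17, adjusted P = 0.033), and a second probe had 0.45, 1.21 and 0.63 (mean 0.77, adjusted P = 0.029). Both probes were above 0 on all 3 arrays, and replicate 2 was the highest for each. Leaving out a replicate gave 0.42 to 0.66, with an adjusted P between 0.066 and 0.20, so the call was lost whichever of the 3 replicates was left out. Ppara, the receptor gene, was not called (0.27, -0.04 and -0.42, adjusted P = 0.81).

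Cpt1a, which carries fatty acids into mitochondria, had log2 ratios of 0.28, 0.39 and 0.32 (mean 0.33, standard error 0.04, adjusted P = 0.0011). A second probe of Cpt1a had -0.19, 0.16 and 0.04 and was not called (adjusted P = 0.99), so the rise rests on the brighter probe. Fgf21, a hormone of the fasted liver, was well above background in the MgH2 channel and not in the control channel on all 3 arrays, with ratios of 0.54, 0.78 and 0.48. In the fit without a filter on dim probes it was not called (adjusted P = 0.57), so a rise of Fgf21 is not shown. Its fold of at least 1.37 set a mean log2 signal of 4.20 with MgH2 against a bound of 3.74, both dim. That fold was taken only because the probe passed in the MgH2 channel. Cyp4a10, a microsomal omega-hydroxylase and PPARα target, rose to 0.32, and Aldh1a1 and Eci2 to 0.21 and 0.22. The peroxisomal thiolase Acaa1b fell (-0.20, -0.52 and -0.45, adjusted P = 0.020), as did Aldh3a2 (-0.14). Pck1, which commits carbon to gluconeogenesis, rose (0.25, 0.45 and 0.21, adjusted P = 0.021), and G6pc was not called (0.14, -0.29 and -0.19). Pck1 and Cyp4a10 lost their calls without replicate 1 and without replicate 2, with an adjusted P of up to 0.14 and 0.13.

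The wider lists of this pathway showed no common direction. Their counts are to be read beside the 13.2% of all tested genes that rose and the 11.4% that fell. Among 54 PPARα targets, 13 rose and 10 fell, with a median of -0.04, and without a replicate 3 to 11 were called higher and 5 to 6 lower. Plin5, which links lipid droplets to mitochondria, had log2 ratios of 0.65, 0.94 and 0.98 (mean 0.86, standard error 0.12, adjusted P = 0.0011). Angptl4, an inhibitor of lipoprotein lipase, rose to 0.50, while Acsl3 and Ucp2 fell to -0.55 and -0.52. Of 23 genes of mitochondrial fatty acid oxidation and ketone synthesis, 5 rose and 5 fell, and without a replicate 2 to 3 were called higher and 1 lower. Etfdh, which passes their electrons on, rose to 0.23. Peroxisomal genes had 4 rises and 3 falls among 39. Among 27 coactivators and partner receptors of PGC-1α, 6 rose and 1 fell. Lpin1, a coactivator that PGC-1α induces, had 1.14, 0.38 and 0.49 (mean 0.67, adjusted P = 0.022), with a second probe at 0.85, and Nrf1 and Sirt3, which serve mitochondrial biogenesis and deacetylation, rose to 0.29 and 0.28.

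Oxidative phosphorylation subunits rose by small steps. Of 76, 24 rose and 2 fell, beside 13.2% and 11.4% of all tested genes, with a median log2 ratio of 0.07. The median was 0.01 at 1 day, 0.03 at 7 days and 0.04 after 14 days of H2-water, and 0 subunits differed from 1 day by limma with the replicate block, while without the block 12 were higher and 0 lower at an unadjusted P under 0.05. Uqcrh, a hinge subunit of complex III, had 0.37, 0.35 and 0.58 (mean 0.43, adjusted P = 0.0016). Its ratio was much the same in every group, with means of 0.42 at 1 day, 0.37 at 7 days and 0.33 after 14 days of H2-water. Ndufb6 of complex I and Atp5g3 of the ATP synthase rose to 0.24 each. A second Ndufb6 probe had a mean of 0.096 and was not called (adjusted P = 0.0503). Cox4i1 and Cox5a of complex IV fell to -0.16 and -0.14. Without a replicate 14 to 15 subunits were called higher. With the 3 arrays alone 0 were called by limma.

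Among the largest rises, some ratios were nearly constant in all groups and others were not. Akr1c18 had log2 ratios of 1.39, 1.31 and 1.30 at 3 days (mean 1.33, or 2.51-fold, standard error 0.11, adjusted P = 4.2e-05), with means of 1.40 at 1 day, 1.04 at 7 days and 0.45 at 14 days. The Akr1c18 probe was dim, and after normexp and loess its ratio at 3 days was 0.41. Luc7l2, a splicing factor, had 0.81, 0.98 and 0.85, with means of 0.78, 0.89 and 0.63 at 1, 7 and 14 days. Psme3, a proteasome activator, Spag7 and Golga7b had means of 0.85, 0.85 and 0.83 at 3 days and of 0.65, 0.58 and 0.57 at 14 days. The second tested probe of Luc7l2 had a mean of -0.06 (adjusted P = 0.67), and that of Il17d, a cytokine gene at 0.92, had 0.03 (adjusted P = 0.83). The brighter Il17d probe had means of 0.88 at 1 day and 1.03 at 7 days and of -0.04 at 14 days, so it was high in the MgH2 groups and not after H2-water. Its control signals at 3 days were low, at 47.9, 54.7 and 52.1, and its ratio was 0.37 under an alternative processing. For both genes 2 probes of the same gene disagreed, and the cause was not tested.

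Several other rises were near or below 0 at 1 day. Plin5 had a mean of -0.05 at 1 day and 0.88 at 7 days. Plin4, another lipid droplet coat gene, had 1.18, 1.12 and 0.41 at 3 days (mean 0.90, adjusted P = 0.022) and a mean of 0.13 at 1 day. Kiss1, which encodes kisspeptin, a peptide that the liver can secrete, had 0.56, 0.79 and 1.22 (mean 0.86, adjusted P = 0.0185) and -0.24 at 1 day, and its second probe had a mean of 0.77 (adjusted P = 0.061). Cdkn1a, the cell cycle inhibitor p21, had 0.21, 1.04 and 1.35 (mean 0.87, adjusted P = 0.046) and -0.20 at 1 day. Inhbb, an activin subunit, had 0.42, 1.32 and 0.63 (mean 0.79, adjusted P = 0.0046) and 0.01 at 1 day. Cgas, the sensor of cytosolic DNA, rose (1.30, 0.50 and 0.66, adjusted P = 0.0040) but was already at a mean of 0.44 at 1 day. Its tested probe was dim, with control signals of 16.9, 16.4 and 19.2. The mean of that probe at 3 days was as low as 0.27 under an alternative processing. The 2 other probes of Cgas were too dim to test.

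**Figure D4:**
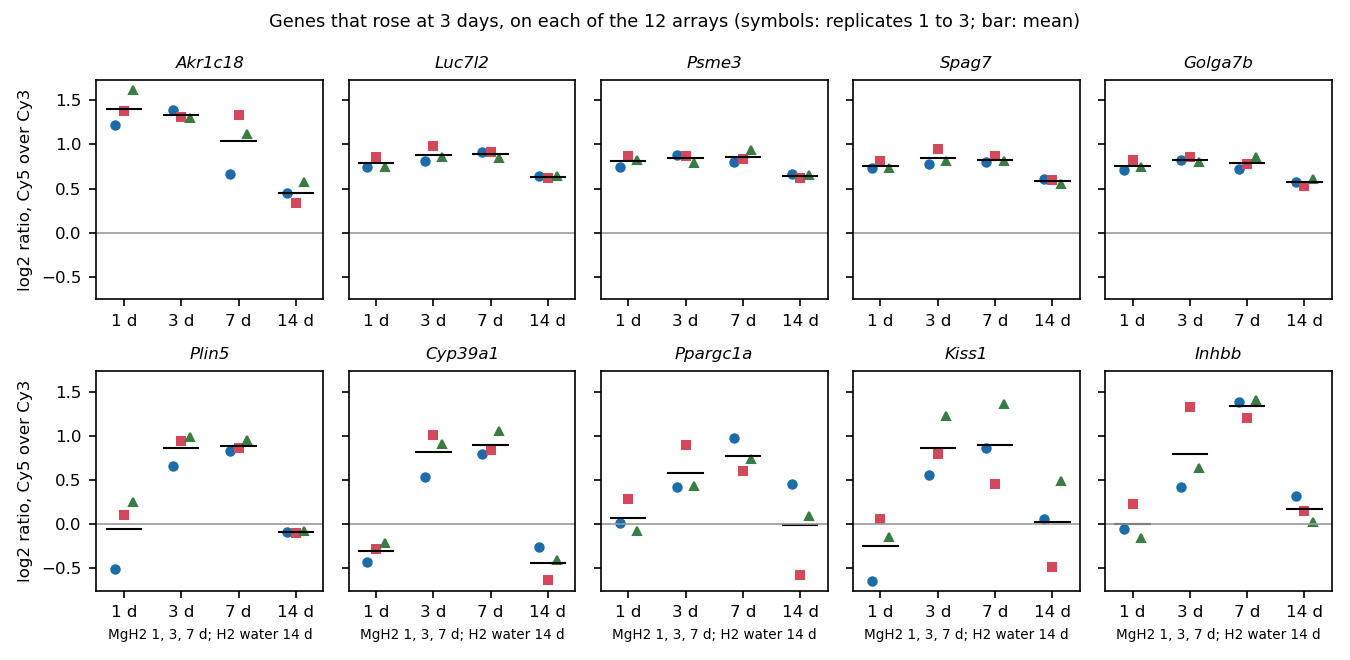
Log2 ratio of the treated pool over the control pool (vertical axis) on each array at 1, 3 and 7 days of MgH2 and 14 days of H2-water, for 10 genes that rose at 3 days, with symbols for replicates 1 to 3 and bars at the mean. The upper row lies above 0 on all 12 arrays, with Psme3 at means of 0.85 at 3 days and 0.65 at 14 days, and the lower row lies near or below 0 at 1 day and above 0 at 3 days.

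Acute phase genes had 7 falls and 2 rises among 28, beside 11.4% and 13.2% of all tested genes, with a median log2 ratio of -0.21. Saa1 had the largest fall among all called genes, with -3.74, -2.02 and -2.23 (mean -2.66, or 6.33-fold lower, adjusted P = 0.046). Its standard error was 0.85, its ratios at 1 day ran from -2.75 to 2.47, and the call was lost without any 1 of the replicates (adjusted P from 0.11 to 0.20). Saa2, a near copy, had -4.75, -2.17 and -2.38 and was not called (adjusted P = 0.065). Apcs, which encodes serum amyloid P, and Orm2 fell to -0.67 and -0.52. Mt1, a metallothionein, rose (0.55, 1.44 and 0.39, adjusted P = 0.027). Without a replicate, 1 or 2 genes of the list were called lower. With the replicate block 13 were. Cxcl1, a neutrophil chemokine that is not on this list, fell (-1.22, -0.46 and -1.27, adjusted P = 0.019).

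The remaining lists gave mixed counts, to be read beside the 13.2% of all tested genes that rose and the 11.4% that fell. Leaving out a replicate took the P450 falls to 4 to 5, the antioxidant rises to 1 to 3, the phase II rises to 2 to 3 and the ribosomal rises to 3 to 9. Among drug-metabolizing cytochrome P450 genes, 4 of 39 rose and 9 fell, led by Cyp2d40 (-0.62) and Cyp2c67 (-0.54). A second probe of Cyp2c67 had a mean of -0.19 and was not called (adjusted P = 0.078). Transferases of phase II had 7 rises and 2 falls among 44, with Sult1e1, the estrogen sulfotransferase, at 0.66 and Gsta3 at 0.42. A second Gsta3 probe, at 0.15, was not called (adjusted P = 0.057). Antioxidant genes had 9 rises and 6 falls among 38. Those of the unfolded protein and heat shock response had 3 and 6 among 38, and 11 falls with the replicate block. Among them were Manf at -0.48 and Atf4 at 0.37, but a second Atf4 probe, at 0.096, was not called (adjusted P = 0.10). Of 44 genes of the urea cycle and amino acid catabolism, 7 rose and 1 fell, with Csad, which makes taurine, at -0.49. Gluconeogenic genes had 4 rises and 3 falls among 28, bile acid genes 3 and 3 among 21, and hepatokines 3 and 1 among 25. Ribosomal protein genes had 15 rises and 6 falls among 77, with a median of 0.01. Cell cycle genes had 2 rises among 29, and major urinary protein and related genes 1 fall among 17. Of the immediate early genes, Klf4 rose (0.64) and Gadd45a fell (-0.86), among 22. No clock gene was called by limma, of 5 clock activators and 12 repressors and output genes tested.

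The contrast of 3 days with 1 day asks what changed over the first doses, and a dye bias common to the arrays cancels in it. Without a block, limma called 4 of 19223 probes (0.0208%), 3 higher (0.0156%) and 1 lower (0.0052%) at 3 days, with 1493 higher and 1469 lower at an unadjusted P under 0.05. With the replicate number as a block, which removes what same-numbered arrays share, it called 55 higher (0.286%) and 119 lower (0.619%). By gene these were 38 higher and 86 lower. The fit with the block also left out the arrays of 14 days. Of the 25 lipogenic genes, 5 were lower than at 1 day with the block, namely Fasn, Elovl6, Thrsp, Me1 and Gpam, and 0 were higher. The log2 ratio of Fasn differed from that of 1 day by -1.69 (adjusted P = 0.043 with the block), where its mean was -0.05. Of the 48 interferon genes, Ifi27l2a, Oasl2 and Irf7 were lower and 0 were higher. Plin5 was 0.91 higher (adjusted P = 0.046 with the block), and Pck1 was higher too.

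The 4 genes called without the block were Cyp39a1, Epop, Ppp4r4 and Fyb. Cyp39a1, an oxysterol hydroxylase of bile acid synthesis, had log2 ratios of 0.53, 1.01 and 0.91 at 3 days and lay between -0.43 and -0.21 at 1 day. Fyb, an adaptor of T cells and platelets, had -0.51, -0.78 and -0.60 at 3 days and 0.05 to 0.08 at 1 day. Epop, a partner of Polycomb complexes, had 0.56, 0.75 and 0.28 against -0.72 to -0.40, and Ppp4r4, a phosphatase subunit, 0.28, 0.50 and 0.45 against -0.40 to -0.19. Genes of this contrast were named only where the arrays of the 2 days did not overlap, so the lack of overlap is no further evidence. Replicate 1, on the slide of the 1-day arrays, lay apart from them by the same choice, so its place is no further evidence either. A second Fyb probe, too dim to test, had a mean of -1.04.

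No probe differed between 3 and 7 days by limma (0 of 19100, with 522 higher and 382 lower at an unadjusted P under 0.05), with or without the block. Fasn, for example, had a mean of -1.73 at 3 days and -1.70 at 7 days, and Ppargc1a 0.58 and 0.77. Against the mean of the other 3 groups, 0 of 18411 probes were called, with 877 higher and 875 lower at an unadjusted P under 0.05. The median of the lipogenic genes was -0.07 at 1 day, -0.49 at 3 days, -0.53 at 7 days and 0.17 after 14 days of H2-water, and that of the interferon genes -0.09, -0.42, -0.49 and -0.05. On the slide that replicate 1 shared with the 1-day arrays, the lipogenic median was -0.24 against 0.30, -0.23 and -0.10 at 1 day, and the interferon median -0.32 against 0.05, -0.05 and -0.26. The 14-day group differed in agent, route, slide and version of the Feature Extraction software as well as in time, and these cannot be told apart.

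**Figure D5:**
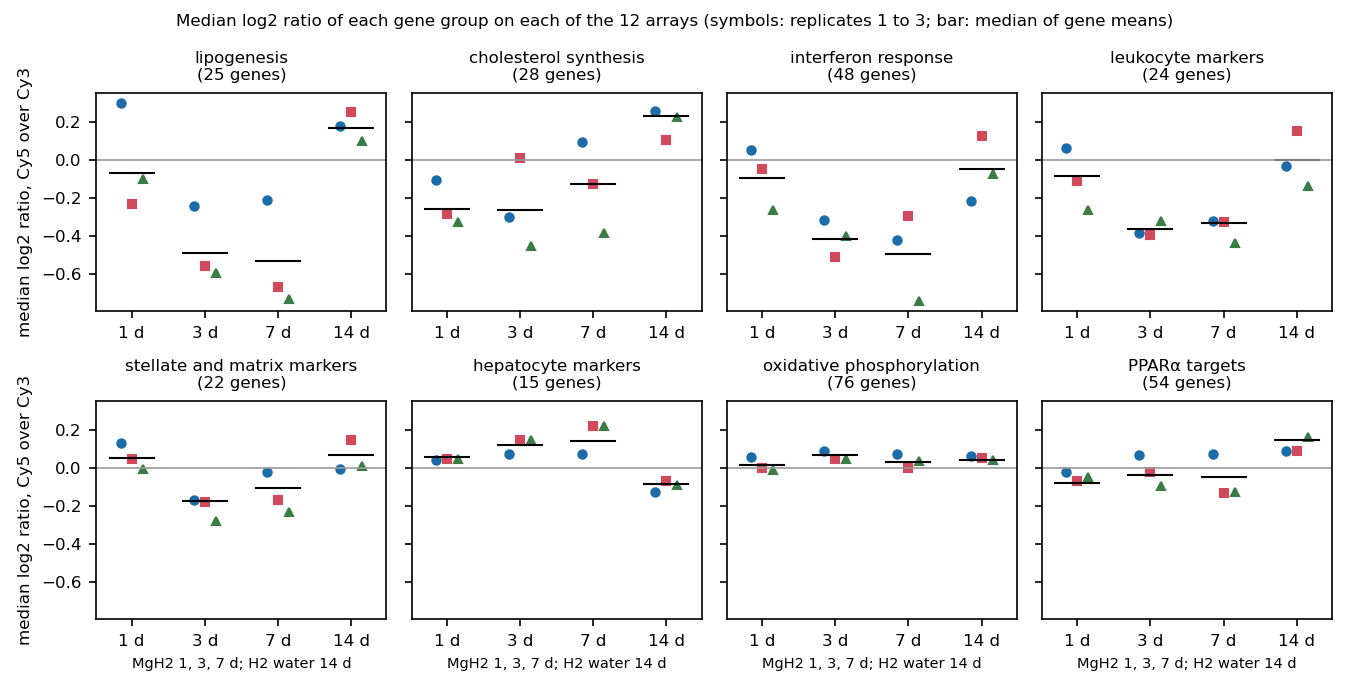
Median log2 ratio of 8 gene groups (vertical axis) on each array at 1, 3 and 7 days of MgH2 and 14 days of H2-water, with symbols for replicates 1 to 3 and bars at the median of the gene means. The lipogenic and interferon medians at 3 days, -0.49 and -0.42, lie near those of 7 days, while the oxidative phosphorylation median of 3 days is 0.07.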

How the data were processed

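Total liver RNA of db/db mice was hybridized to two-color Agilent arrays, with control pools in Cy3 and treated pools in Cy5. The authors deposited Feature Extraction output (10.10.1.1 for the 9 MgH2 arrays and 10.7.3.1 for the 3 arrays of 14 days, per the file headers), whose processed intensities are background-subtracted and dye-normalized, and whose log10 ratio of Cy5 over Cy3 is derived from them. The deposited series table holds that ratio as log2 values, to within 1.39e-06. The log2 ratio of the processed intensities was computed over spots that are no controls and carry no outlier flag, and spots of a probe were averaged. RefSeq symbols named 26412 of 39429 probes (67.0%), and a gene was represented by its probe of highest mean signal. A probe was tested where Feature Extraction marked its Cy3 and Cy5 signals as well above background on each of the 3 arrays.

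The fit by limma (3.58.1, under R 4.3.3) took all 12 arrays and gave each group its mean, and P values were adjusted by Benjamini-Hochberg over all probes tested. P values of the main fit measure the spread between pools of 3 mice, and the number of arrays limits the precision. That fit takes the arrays as independent, also where control pools may be shared. With the replicate block, the spread that same-numbered arrays share is removed. P values of the block for 3 days alone therefore do not measure the full spread between pools, and its counts can be too large. The replicate numbers were taken to pair the arrays of 1, 3 and 7 days, since deviations of same-numbered arrays from their group means correlated at 0.368 to 0.527 in all 6 pairs with 3 days. The labels state no such pairing. The text names the 12 largest rises and 12 largest falls with the same sign on all 3 arrays, the genes on which the study reasoned, up to 4 called genes with the largest change from each other of the 33 lists, and up to 5 genes in each direction from each contrast. Genes of a contrast had to be called in it, with groups that did not overlap. Further genes, called or not, were named after their values were seen. The members and lists were chosen with earlier results of these data known. Signals were also scaled by channel totals, centered on the median, or taken after normexp (offset 50) and loess from the raw intensities. Fits without a filter, with a stricter filter, with the slide or replicate as a block, on fewer arrays, without each replicate, and the methods' t-test were the other alternatives. At least folds set the mean of the bright channel against the lowest signal well above background on each array. Python 3.11.15 and pandas 2.3.3 made the summaries. Some genes of the lists are counted but not reported here by name.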

Additional observations from a re-analysis of the deposited data

Results flagged for a closer look

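The 4 genes whose response differed between 3 days and 1 day in the test of that difference are given here. They were named only because the arrays of the 2 days did not overlap, so the separation of the arrays below is no further evidence. Cyp39a1 had a log2 ratio 1.12 higher at 3 days than at 1 day (adjusted P = 0.048 by limma, 0.025 with the replicate block), with all 3 arrays of 3 days above 0 and all 3 of 1 day below it. Epop was 1.07 higher (adjusted P = 0.046, 0.025 with the block) and Ppp4r4 0.73 higher (adjusted P = 0.048, 0.025 with the block), again with every array of 3 days above 0 and every array of 1 day below. Fyb differed by -0.69 (adjusted P = 0.046, 0.032 with the block), and its 3 arrays of 3 days were below 0 and those of 1 day above. Of 11 alternatives, the call held in 6 for Cyp39a1, 6 for Epop, 5 for Ppp4r4 and 7 for Fyb. Without replicate 2 it was lost for all 4 genes (adjusted P of 0.164, 0.123, 0.164 and 0.0588 in that order), without replicate 3 for Cyp39a1, Ppp4r4 and Fyb (0.128, 0.128 and 0.0932), and without replicate 1 for Epop (0.0725). Without a filter on dim probes the adjusted P was 0.159 to 0.20.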

How the results depend on the processing

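For 3 days of MgH2, limma called 1334 probes higher and 1096 lower without a filter on dim probes, 185 and 107 with the 3 arrays alone, and the methods' t-test called 13 and 5 after Benjamini-Hochberg adjustment against 2020 and 1815 unadjusted. Leaving out a replicate gave 1232 to 1617 higher and 879 to 1364 lower, the fewest without replicate 2. The replicate block, which leaves out the spread that same-numbered arrays share, gave 3028 and 3000. Between 3 days and 1 day, the replicate block gave 55 higher and 119 lower in place of 3 and 1. It pairs arrays by number and took the 9 MgH2 arrays only. Median-centered arrays gave 0 higher, normexp and loess 7 and 11, and no filter 0 and 0. The slide as a random block gave 3 lower, and the 9 arrays of MgH2 without a block 1 and 0. Without a replicate these counts were 0 to 3 higher and 0 to 5 lower, with 0 and 0 without replicate 2. Against the other 3 groups, the slide as a random block gave 2 higher. No result changed direction under the alternatives run. Among results of named genes, 118 lost their call by the methods' t-test after adjustment and 101 with the 3 arrays alone. Without replicate 2 the count was 58 and without the filter 50, and these 2 counts also hold results of the contrast with 1 day. The cause was not tested. The dyes were not swapped, each group has 3 pools, and probes not well above background were not tested.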
